A study of Homo sapiens with 6 samples.

Results

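The 34 genes described here encode the enzymes and carriers that activate long-chain fatty acids, bring them into mitochondria, break them down and handle the ketone bodies made from the product. They were chosen by symbol from a list of pathway members, and all 34 were found among the 23368 genes of the deposited table. The cells were HepG2, a human hepatoma line that still makes albumin and other liver proteins, and RNA was measured by sequencing. The group called shCHROME has 3 libraries, a, b and c, whose cells stably carried a lentiviral hairpin against CHROME, a long noncoding RNA. The 3 libraries they are set against (EV, replicates a, b and c) came from HepG2 cells that stably carried a non-targeting hairpin in the same pLKO vector, so virus, vector and line were common to both groups. One hairpin against CHROME is named in the sample titles, and whether its libraries are separate cultures is not stated. The p-values below therefore cover the spread among these 6 libraries, and that spread may be technical.

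Fatty acid oxidation takes place in the mitochondrial matrix. A fatty acid is first joined to coenzyme A, handed to carnitine to cross the inner membrane, and then shortened in a repeated spiral of dehydrogenation, hydration, a second dehydrogenation and thiolysis, with different enzymes for different chain lengths. Electrons from the first dehydrogenation pass through the electron transfer flavoprotein to the respiratory chain, and in the fasting liver the acetyl-CoA released is made into ketone bodies for export. The nuclear receptor PPARA switches on many of these genes when fatty acids are plentiful.

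The recovered reads numbered 29477352 to 33911426 in the shCHROME libraries and 29188213 to 35429420 in the EV libraries, of which the 34 genes took 0.438% to 0.446% and 0.468% to 0.483%. Values are normalized counts, that is, reads divided by a size factor for each library. The level of CHROME itself was not analysed here, and no value for its knockdown stands beside these results. Of 12 hepatocyte markers all were expressed, and 6 were lower in shCHROME. These were AFP 1.83-fold, TTR 1.65-fold, APOA1 1.29-fold, ALB 1.25-fold, SERPINA1 1.2-fold and TF 1.18-fold. TTR had the lowest level of the 12, with means of 398 normalized counts in shCHROME and 656 in EV. The other 6 did not pass. APOA2 (1.13-fold) and FGB (1.12-fold) were higher at an unadjusted p under 0.05 (limma). APOB, HNF4A, FGA and AHSG had log2 fold changes of -0.04, -0.03, -0.05 and -0.06. The summed level of the 12 was 39699 to 46537 CPM (counts scaled to the library total) in shCHROME and 47881 to 51586 CPM in EV. Most of that sum came from ALB (means of 580030 normalized counts in shCHROME and 722799 in EV) and APOB (456396 in shCHROME and 466633 in EV). The part of this sum in the results was not tested. In bulk RNA, fewer cells of a kind and less RNA per cell cannot be told apart. The call of ALB did not hold without EV replicate a (adjusted p = 0.0714) or c (0.0826), nor with every gene that had at least 1 read tested (0.141). Those of SERPINA1 and TF did not hold without shCHROME replicate c (0.0512 for SERPINA1 and 0.0586 for TF) or EV replicate c (0.0540 for SERPINA1 and 0.0621 for TF).

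Most of the pathway's changed genes were lower in shCHROME cells. A member was called at a Benjamini-Hochberg adjusted p under 0.05 from limma, adjusted over all 14598 genes tested. Of the 34 members 32 were expressed highly enough to be tested, and 11 fell, 3 rose and 18 did not pass. Over all genes tested 6.87% were called lower, 3.64% higher and 10.5% in either direction. Those that fell include a fatty acid binding protein, a lipid droplet coat protein, the carnitine transferase CPT1A, both subunits of the long-chain trifunctional protein and the flavoprotein dehydrogenase ETFDH. Those that rose were a pair of activating enzymes and the ketone-using transferase OXCT1. Every called change was under 1.5-fold. The median log2 fold change was -0.07 over the 32 members and 0.01 over all genes tested. The members' median was -0.12 without EV replicate a, and -0.02 with libraries scaled to their totals, where that of all genes was 0.06. Of these 32 members, 17 had groups that did not overlap, 14 lower and 3 higher, where 28% of all genes tested did not overlap (15% lower, 13% higher). The count lower was 7 without shCHROME replicate c, without EV replicate a and without EV replicate c. The count higher was 0 (limma) without shCHROME replicate c or EV replicate a, and 1 without EV replicate b or c. With libraries scaled to their totals 7 members were lower and 3 higher, while over all genes 702 were lower and 936 higher, against 1003 lower and 532 higher as deposited.

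**Figure D1:**
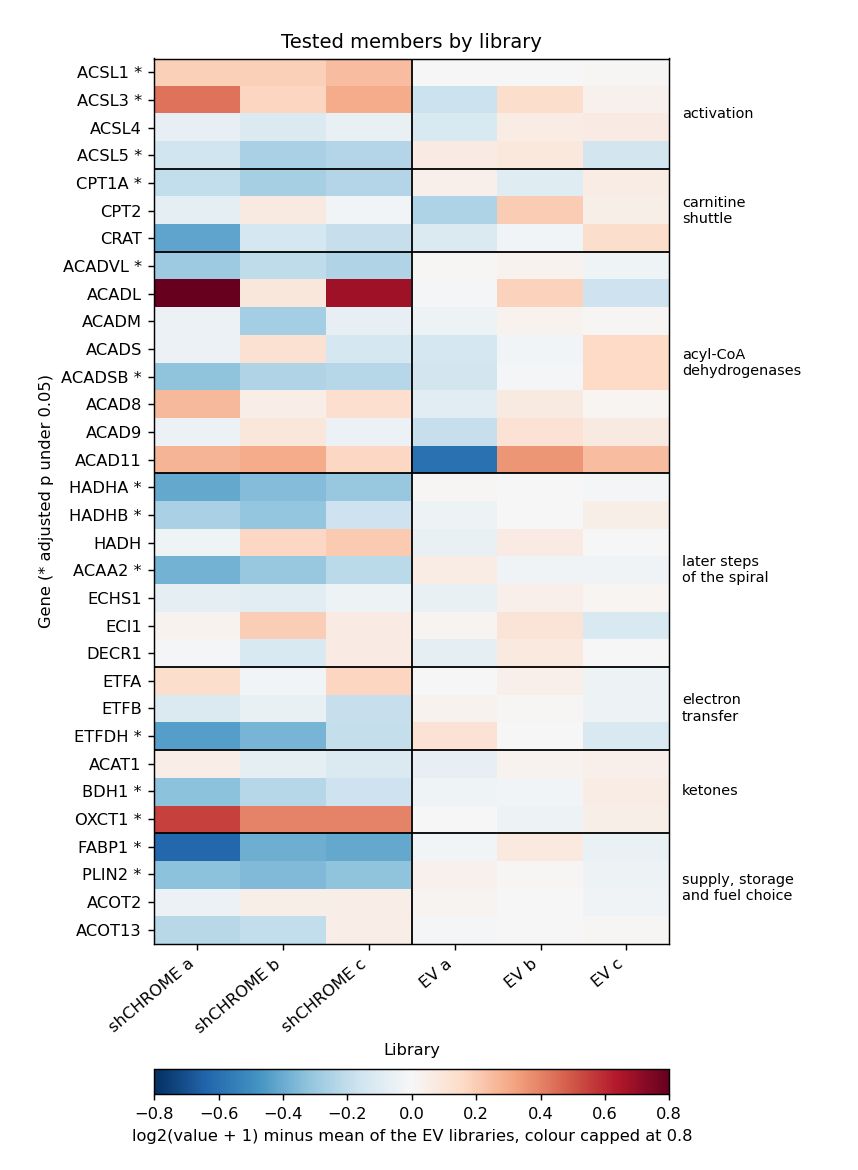
Each row is a tested member, grouped by step, and each column a library, with the shCHROME libraries left of the EV libraries. Colour gives log2(value + 1) minus the mean of the EV libraries, with red higher and blue lower, and an asterisk marks an adjusted p under 0.05. The rows of HADHA, PLIN2, FABP1, ACAA2 and ACADVL are blue in all 3 shCHROME libraries, and those of OXCT1 and ACSL1 are red.

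The long-chain acyl-CoA synthetases, which join fatty acids to coenzyme A, did not move together. ACSL1, the main synthetase of liver and fat, had 4090, 4096 and 4251 normalized counts in shCHROME, against 3572, 3567 and 3605 in EV. The lowest shCHROME library was above the highest EV library, and ACSL1 rose 1.16-fold (adjusted p = 0.0193). ACSL3, which sits on the endoplasmic reticulum and on lipid droplets, had 12278, 10255 and 11178 normalized counts in shCHROME, against 8067, 10047 and 9303 in EV. The groups came close without overlapping, and ACSL3 rose 1.23-fold (adjusted p = 0.0157). ACSL5, a synthetase of mitochondria and endoplasmic reticulum, moved the other way. It had 11689, 10883 and 11068 normalized counts in shCHROME, against 13641, 13813 and 11749 in EV, and fell 1.16-fold (adjusted p = 0.0341). ACSL4, which prefers arachidonic acid, had overlapping groups, and its log2 fold change of -0.08 had a 95% interval of -0.20 to 0.04. Summed over the 4 synthetases the values overlapped, with 34458 to 37596 normalized counts in shCHROME and 34486 to 37834 in EV.

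These 3 calls rested on few libraries. That of ACSL1 did not hold without shCHROME replicate c (adjusted p = 0.0953) or without EV replicate a (0.0719), b (0.0595) or c (0.0640). That of ACSL3 did not hold without shCHROME replicate c (0.0661) or EV replicate a (0.107). The call of ACSL5 did not hold without shCHROME replicate b (0.0896), c (0.132), EV replicate a (0.159) or EV replicate b (0.137), nor with libraries scaled to their totals (0.0845) or with every gene that had at least 1 read tested (0.0537).

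In the carnitine shuttle, CPT1A fell. CPT1A is the liver form of carnitine palmitoyltransferase 1, which makes acylcarnitine at the outer membrane and is held in check by malonyl-CoA. It had 7412, 7082 and 7224 normalized counts in shCHROME, against 8769, 7943 and 8852 in EV. All 3 shCHROME values were below the lowest EV value, with a log2 fold change of -0.23 ± 0.06 (SE) and an adjusted p of 0.0129. It missed the threshold without shCHROME library c (adjusted p = 0.0587) and without EV library a (0.0722) or c (0.0785). CPT2, its partner on the inner membrane, had overlapping groups, with -0.01 on the log2 scale (95% interval -0.21 to 0.20). CRAT, which moves acetyl groups onto carnitine, had 729, 883 and 858 normalized counts in shCHROME, against 900, 959 and 1072 in EV. Its groups did not overlap, but it did not pass the test (log2 fold change -0.25, adjusted p = 0.0892). CPT1C, the neuronal form, had 0 reads over the shCHROME libraries and 1 over the EV libraries, and was not tested.

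CPT1A and HADHB, a subunit of the long-chain trifunctional protein, are the members whose longest annotated 3′ untranslated region holds a match to the seed of miR-33. CHROME is reported in the literature to bind miR-33 among other microRNAs, which is why the sequences are shown. The mature microRNAs are from RefSeq (GRCh38.p14), with bases 2 to 8, the seed, in capitals. The sites are from GENCODE release 29 transcripts (GRCh38), with the letters that pair with the seed in capitals. MiR-33a lies at chr22:41900949-41900969 on the plus strand and miR-33b at chr17:17813897-17813916 on the minus strand. The CPT1A site is at chr11:68755124-68755145 on the minus strand and begins its match at base 2513 of a region of 2755 bases. The HADHB site is at chr2:26290000-26290021 on the plus strand, with the match from base 61 of 515.
hsa-miR-33a-5p: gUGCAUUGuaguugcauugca
hsa-miR-33b-5p: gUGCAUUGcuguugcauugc
CPT1A site: atcagtgcagttatCAATGCAa
HADHB site: aggcaatgccatttCAATGCAt
The 7-letter match CAATGCA, searched on the sense strand, occurred in 2 of 34 members (5.88%) and in 9.18% of the 12402 tested genes that had such a region. The 34 members include CPT1C and PDK4, which were not tested, so the sets differ in that way. A match is a description of these letters and not evidence of a bound site.

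**Figure D2:**
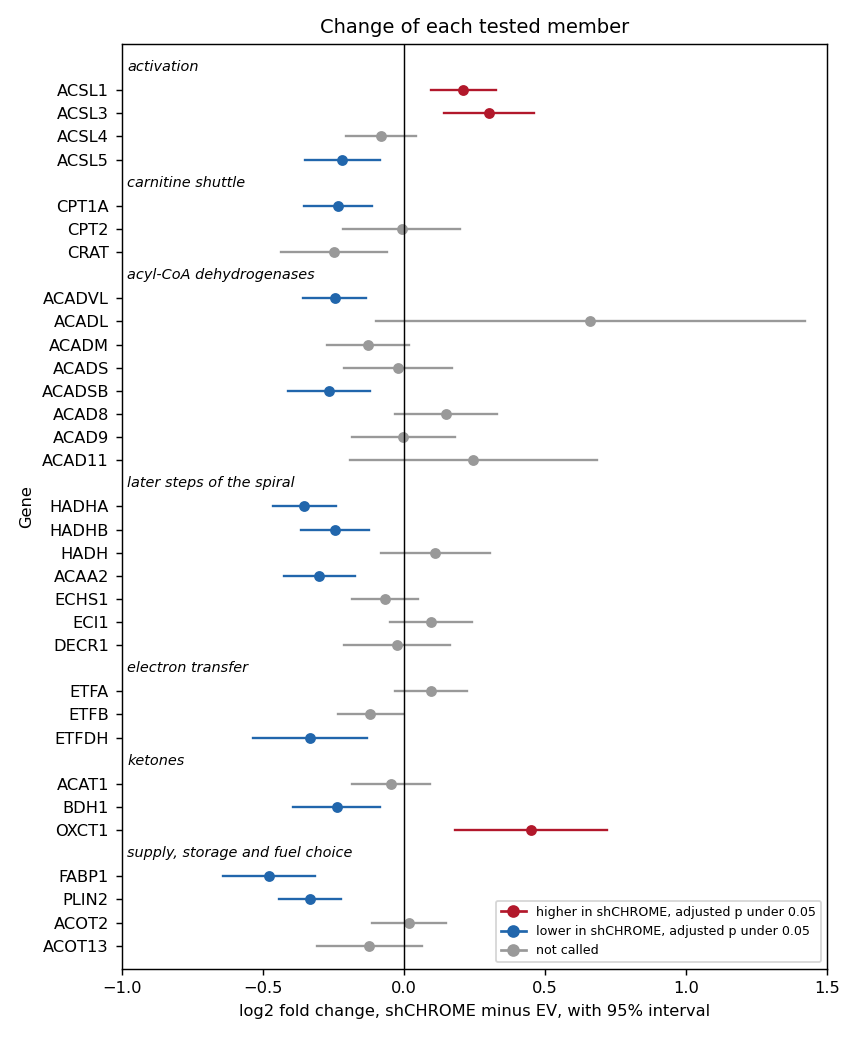
Each point is the log2 fold change of a tested member, shCHROME minus EV, and each bar its 95% interval from limma, grouped by step. Blue marks a call lower in shCHROME, red a call higher and grey no call. FABP1, HADHA, PLIN2 and ETFDH lie furthest to the left among the blue points, and ACADL has the widest interval, -0.10 to 1.42.

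The acyl-CoA dehydrogenases carry out the first step of the spiral, each for its own chain length. ACADVL, the very-long-chain enzyme bound to the inner membrane, had 11829, 12573 and 12263 normalized counts in shCHROME, against 14567, 14762 and 14116 in EV. The highest shCHROME library was well below the lowest EV library, and ACADVL fell 1.19-fold (adjusted p = 0.00573). The call was kept in all 16 alternatives run, with adjusted p of 0.0323 at most. ACADSB, which acts on short branched chains from isoleucine, had 3935, 4155 and 4189 normalized counts in shCHROME, against 4433, 4879 and 5483 in EV. It fell 1.2-fold (adjusted p = 0.0193), a call lost without shCHROME replicate c (0.0571) or EV replicate c (0.134) and with libraries scaled to their totals (0.0570).

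The medium-chain and short-chain enzymes did not pass. ACADM, the medium-chain dehydrogenase, had 2228, 1900 and 2196 normalized counts in shCHROME, against 2235, 2346 and 2309 in EV, groups that barely missed each other (log2 fold change -0.13, adjusted p = 0.275). ACADS, the short-chain enzyme, was at -0.02 on the log2 scale (95% interval -0.21 to 0.17). ACAD9, known mainly as an assembly factor of respiratory complex I, had -0.00 (-0.19 to 0.18). ACAD8, which acts on isobutyryl-CoA from valine, had 0.15 (-0.03 to 0.33). ACAD11, which acts on long and very long chains, had 0.25 (-0.19 to 0.68), and its lowest value, 63.6 normalized counts, was in EV replicate a against 115 to 123 in the other EV libraries. ACADL, the long-chain enzyme, was near the limit of detection with 32.7, 14.5 and 22.3 normalized counts in shCHROME, against 13.4, 15.5 and 11.9 in EV. Its groups overlapped and its log2 fold change was 0.66 ± 0.36 (SE, adjusted p = 0.279).

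Later in the spiral, both genes of the long-chain trifunctional protein and the thiolase ACAA2 fell. HADHA (ENSG00000084754) is the alpha subunit of the trifunctional protein, with the hydratase and hydroxyacyl dehydrogenase activities for long chains. It had 11087, 11576 and 11922 normalized counts in shCHROME, against 14824, 14750 and 14587 in EV. The EV libraries lay within a narrow band and every shCHROME library was far below it, with a log2 fold change of -0.35 ± 0.05 (SE) and the lowest adjusted p of the members, 0.000272. HADHB (ENSG00000138029), the beta subunit with the long-chain thiolase, had 5092, 4927 and 5434 normalized counts in shCHROME, against 5919, 6081 and 6297 in EV. It fell 1.18-fold without overlap (adjusted p = 0.00993), a call lost without EV replicate c (0.0609). ACAA2 (ENSG00000167315), the thiolase for medium and short chains, had 3511, 3702 and 3933 normalized counts in shCHROME, against 4756, 4480 and 4482 in EV. It fell 1.23-fold (adjusted p = 0.00313). The calls of HADHA and ACAA2 were kept in all 16 alternatives, with adjusted p of 0.00293 and 0.0254 at most.

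The other enzymes of these steps did not pass. ECHS1, the short-chain hydratase, was at -0.07 on the log2 scale (95% interval -0.18 to 0.05), and HADH, the medium- and short-chain hydroxyacyl dehydrogenase, had 0.11 (-0.08 to 0.30). ECI1, an isomerase for unsaturated chains, had 0.10 (-0.05 to 0.24), and DECR1, the dienoyl-CoA reductase, had -0.03 (-0.21 to 0.16). Within the trifunctional protein the log2 ratio of HADHA to HADHB was 1.12, 1.23 and 1.13 in shCHROME, against 1.32, 1.28 and 1.21 in EV. The means differed by -0.11, with an exact two-sided permutation p of 0.2 (0.267 adjusted over 4 ratios, with 0.1 the smallest p that 3 against 3 libraries allow).

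HADHA and HADHB lie head to head on chromosome 2 and share the stretch between their starts, shown because both genes fell. In RefSeq (GRCh38.p14) the starts are 307 bases apart. The 250 bases before the HADHB start, chr2:26244689-26244938 on the plus strand, are printed with capitals for the 194 bases that also lie within 250 bases before the HADHA start on the other strand.
HADHB upstream: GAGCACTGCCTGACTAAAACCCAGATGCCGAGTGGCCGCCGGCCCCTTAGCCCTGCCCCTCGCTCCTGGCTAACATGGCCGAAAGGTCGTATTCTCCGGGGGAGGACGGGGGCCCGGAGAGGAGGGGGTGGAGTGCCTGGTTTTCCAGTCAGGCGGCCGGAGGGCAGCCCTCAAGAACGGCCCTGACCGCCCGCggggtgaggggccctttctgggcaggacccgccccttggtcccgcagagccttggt

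Of the electron transfer genes, ETFDH fell. ETFDH is the inner-membrane dehydrogenase that passes electrons from the flavoprotein to ubiquinone. It had 461, 484 and 550 normalized counts in shCHROME, against 680, 628 and 576 in EV, and fell 1.26-fold (adjusted p = 0.0319). Its call did not hold without shCHROME replicate a (adjusted p = 0.0826) or b (0.0803), without EV replicate a (0.152) or b (0.0810), nor with libraries scaled to their totals (0.0655). The subunits of the flavoprotein itself did not pass. ETFA had 6874, 6131 and 7013 normalized counts in shCHROME, against 6240, 6406 and 6061 in EV (log2 fold change 0.10, adjusted p = 0.363). ETFB had 12758, 13296 and 12178 in shCHROME, against 14090, 13942 and 13457 in EV (-0.12, adjusted p = 0.189). The log2 ratio of ETFA to ETFB was -0.89, -1.12 and -0.80 in shCHROME, against -1.17, -1.12 and -1.15 in EV. The difference of means was 0.21, with an exact two-sided permutation p of 0.1, the smallest possible here (0.2 adjusted over 4 ratios).

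Among the ketone genes the calls went in opposite directions. BDH1, which interconverts acetoacetate and beta-hydroxybutyrate, had 994, 1065 and 1113 normalized counts in shCHROME, against 1215, 1225 and 1300 in EV. It fell 1.18-fold (adjusted p = 0.0423), close to the threshold. OXCT1, the transferase that lets tissues burn ketone bodies and is kept low in normal liver, had 219, 197 and 198 normalized counts in shCHROME, against 149, 145 and 154 in EV. It rose 1.37-fold without overlap (adjusted p = 0.0305). ACAT1, the mitochondrial thiolase that joins or splits acetoacetyl-CoA, was at -0.05 on the log2 scale (95% interval -0.18 to 0.09). The log2 ratio of ACAT1 to OXCT1 was 3.4, 3.43 and 3.38 in shCHROME, against 3.84, 3.97 and 3.89 in EV, a difference of -0.50 (exact two-sided permutation p = 0.1, 0.2 adjusted over 4 ratios). Leaving out any 1 library ended both calls. The adjusted p of BDH1 was then 0.115, 0.0636 and 0.0602 without shCHROME replicate a, b and c, and 0.0844, 0.0837 and 0.173 without EV replicate a, b and c. That of OXCT1 was 0.0863, 0.0506 and 0.0732 without shCHROME replicate a, b and c, and 0.0766, 0.0975 and 0.0694 without EV replicate a, b and c. BDH1 also missed the threshold with library totals (0.104) or upper quartile scaling (0.0505), and OXCT1 with every gene that had at least 1 read tested (0.0583).

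FABP1 had the largest fall of the called members, and PLIN2, the most abundant member per exon length, also fell. FABP1 (ENSG00000163586), the cytosolic fatty acid binding protein of liver, had 936, 1104 and 1091 normalized counts in shCHROME, against 1427, 1528 and 1398 in EV. It fell 1.39-fold, with a log2 fold change of -0.48 ± 0.08 (SE) and an adjusted p of 0.000589. PLIN2 (ENSG00000147872), the coat protein of lipid droplets in liver cells, had 17128, 16794 and 17202 normalized counts in shCHROME, against 22009, 21602 and 20846 in EV. It fell 1.26-fold (adjusted p = 0.000438). In both genes the groups stood far apart relative to their spread, and both calls were kept in all 16 alternatives, with adjusted p of 0.0033 and 0.00526 at most. The thioesterases, which release fatty acids from coenzyme A, did not pass. ACOT2, of the matrix, was at 0.02 on the log2 scale (95% interval -0.11 to 0.15), and ACOT13 had -0.12 (-0.31 to 0.06). PDK4, the kinase that turns off pyruvate dehydrogenase when fat is burned, had 18 reads over the shCHROME libraries and 29 over the EV libraries and was not tested.

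**Figure D3:**
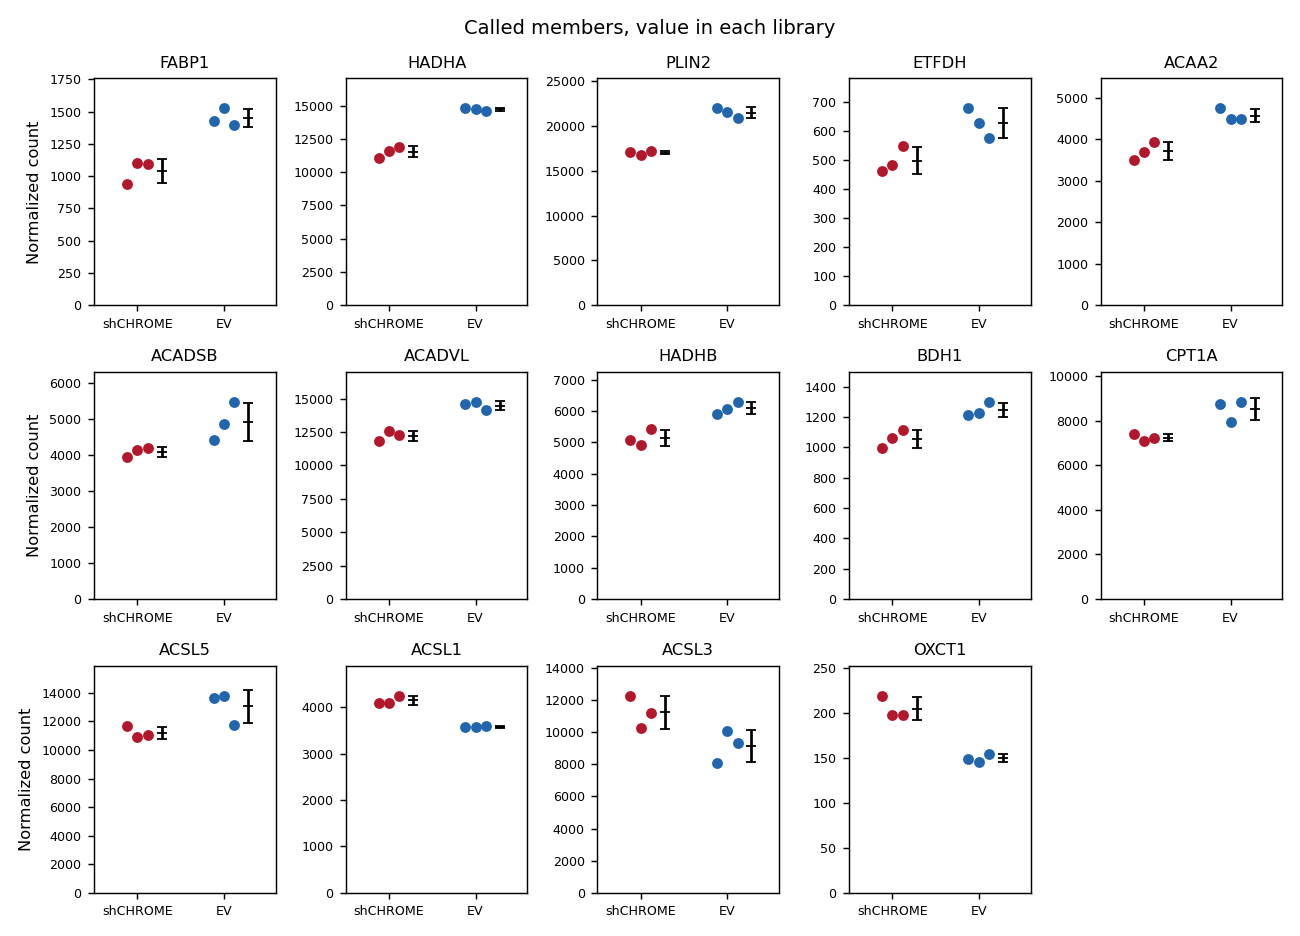
Each panel is a called member, ordered from the most lowered to the most raised. Red points are the shCHROME libraries and blue points the EV libraries, in normalized counts from 0, with the mean and SD (n = 3) as a bar beside them. In all 14 panels the groups do not overlap, which adds no support, since the members shown were picked by the test on these same values. The gap is wide for HADHA and PLIN2 and narrow for ACSL5 and ETFDH.

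Set per length of annotated exon, the members that fell included the most abundant ones. That length joins all exons annotated for a gene and can exceed that of a single transcript, so the order depends on it. PLIN2 had the highest level, at 7403 ± 94.4 normalized counts per kilobase in shCHROME and 9333 ± 256 in EV (SD, n = 3 each). ACADVL followed, at 4938 ± 151 in shCHROME and 5851 ± 134 in EV, and HADHA came next, at 3673 ± 134 in shCHROME and 4689 ± 38.7 in EV. These levels were further apart than their spread. OXCT1, which rose, stood near the bottom of the order, at 53.3 ± 3.29 in shCHROME and 38.9 ± 1.17 in EV. Summed over the 7 enzymes of the later steps, normalized counts were 27460, 28292 and 29338 in shCHROME, against 33269, 33615 and 33142 in EV. This sum holds the 3 called genes HADHA, HADHB and ACAA2, and the other 4 did not pass. HADHA was its largest part. Sums of the carnitine shuttle, the dehydrogenases and the supply genes were also lower without overlap. That of the ketone genes overlapped. For electron transfer the highest shCHROME sum was 20092.8 and the lowest EV sum 20093.2. The sums were not tested.

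Around these members, the monocarboxylate carriers SLC16A6 and SLC16A1 fell. SLC16A6, a ketone body exporter of zebrafish liver, had 176, 184 and 166 normalized counts in shCHROME, against 241, 303 and 278 in EV, and fell 1.56-fold without overlap (adjusted p = 0.00289). SLC16A1, a carrier of lactate and ketone bodies, fell 1.21-fold (adjusted p = 0.00394). Another monocarboxylate carrier, SLC16A7, was too low to be tested, with 9.34, 4.14 and 11.7 normalized counts in shCHROME, against 2.23, 2.74 and 2.99 in EV, from 25 and 8 reads. Its groups did not overlap, and it was higher in shCHROME. Of 7 tested ketone genes outside the members, 2 fell and 5 did not pass, where 6.87% of all genes tested were called lower.

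In a list made for control of the pathway, which also holds PPAR targets such as ANGPTL4, more genes fell than rose. The same was so over all genes tested, of which 6.87% were called lower and 3.64% higher. With libraries scaled to their totals, 42.9% of the calls over all genes were lower. Of 33 tested, 7 fell, 1 rose and 25 did not pass. PPARA had 5385, 5887 and 5796 normalized counts in shCHROME, against 7079, 6680 and 7289 in EV, and fell 1.23-fold (adjusted p = 0.00234). Its partner RXRA fell 1.34-fold, the nuclear receptor ESRRA 1.25-fold, and the coactivator PPARGC1A 1.18-fold. LPIN1, a phosphatidate phosphatase and coactivator, fell 1.3-fold, TXNIP 1.35-fold, and ANGPTL4, a PPAR target that inhibits lipases, 1.43-fold. PPARGC1B, a related coactivator, rose 1.97-fold, with 51.4, 50.7 and 73.3 normalized counts in shCHROME, against 24.5, 25.6 and 37.8 in EV. The call of PPARGC1A did not hold without shCHROME replicate b (adjusted p = 0.0820) or EV replicate a (0.0756) or c (0.157), nor with library totals (0.0750). That of PPARGC1B did not hold without shCHROME replicate c (0.126) or EV replicate a (0.0692) or b (0.0628).

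Further calls were in carnitine supply, fatty acid uptake and lipid droplets. Beside these counts, 6.87% of all genes tested were called lower and 3.64% higher. SLC25A20, which exchanges acylcarnitine for carnitine across the inner membrane, had 1329, 1468 and 1574 normalized counts in shCHROME, against 1915, 1955 and 1963 in EV, and fell 1.34-fold. It was the one call among 6 tested genes of carnitine supply. Of 22 tested genes of uptake and activation, 4 fell, the medium-chain synthetase ACSF2 1.51-fold, the bile acid synthetase SLC27A5 1.36-fold, the acetyl-CoA synthetase ACSS1 1.29-fold and the very-long-chain synthetase SLC27A2 1.24-fold, and the fatty acid binding protein FABP5 rose 1.49-fold. Of 16 genes of lipid droplets and lipolysis, 3 fell, CIDEC 1.38-fold, HSD17B11 1.25-fold and PLIN3 1.16-fold. In the breakdown of other mitochondrial acyl-CoAs 2 of 27 fell, MCEE 1.26-fold and AUH 1.19-fold, a share near that of all genes. Of 16 partners of electron transfer, limma called 0, with 2 lower and 3 higher at an unadjusted p under 0.05, edgeR called 0 and DESeq2 called 1 lower.

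Several of these calls rested on few libraries. Without shCHROME replicate c the calls of SLC27A5 (adjusted p = 0.0612) and FABP5 (0.0536) were lost. SLC27A2 lost its call without either shCHROME replicate a or b or any EV library (0.0718 to 0.168), and did not pass with edgeR (0.0513), TMM scaling (0.0512), upper quartile scaling (0.0592) or every gene that had at least 1 read tested (0.0627). CIDEC lost its call without shCHROME replicate a or c or EV replicate a or b (0.0542 to 0.164), and with every gene that had at least 1 read tested (0.0549). For PLIN3 this held without shCHROME replicate b or c or EV replicate a or b (0.0704 to 0.164), for MCEE without shCHROME replicate b or c or EV replicate a or c (0.0615 to 0.110), and for AUH without shCHROME replicate b or c or EV replicate b or c (0.0730 to 0.177). With library totals SLC27A2 (0.0997), CIDEC (0.0587), PLIN3 (0.0856), MCEE (0.0503) and AUH (0.0959) did not pass either.

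Genes of mitochondrial content outside fatty acid oxidation included those of the import machinery, the citric acid cycle and mitochondrial chaperones. Of 29 tested, 1 fell (the outer membrane channel VDAC1, 1.17-fold) and 1 rose (the fumarase FH, 1.2-fold). That is near the share over all genes tested, of which 6.87% were called lower and 3.64% higher. DESeq2 called 2 lower and 1 higher, and 3 were lower and 2 higher at an unadjusted p under 0.05 (limma). The median log2 fold change was 0.02, against -0.07 over the members as deposited and 0.01 over all genes tested. The difference between these lists was not tested. The call of VDAC1 did not hold without EV replicate a (adjusted p = 0.0556) and that of FH without shCHROME replicate a (0.0732) or c (0.172) or EV replicate a (0.219) or c (0.0862), nor with every gene that had at least 1 read tested (0.0504).

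**Figure D4:**
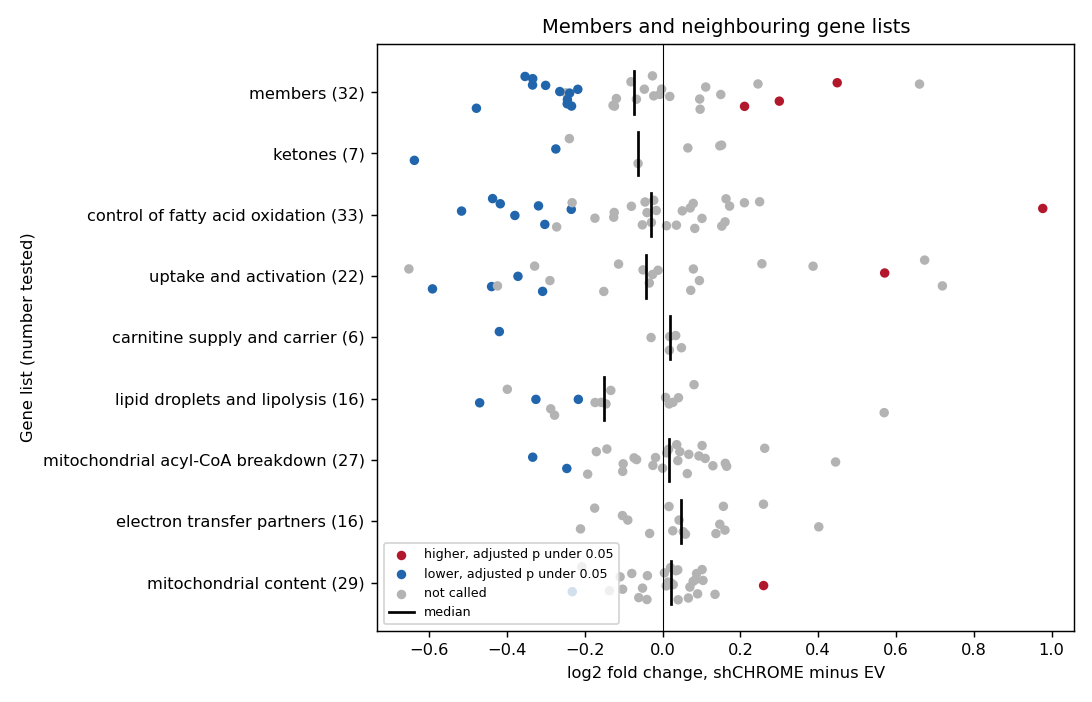
Each point is a tested gene, placed by its log2 fold change (shCHROME minus EV), in the members (top) and in 8 neighbouring gene lists, with the number tested in brackets. Blue and red mark calls lower and higher in shCHROME, and the black line is the median of the list. The point furthest to the right is PPARGC1B, at 0.98, and the 29 genes of mitochondrial content lie between -0.23 and 0.26.

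The authors' own comparison in their deposited table called 10 members lower and 2 higher. Its means were not those of these 6 libraries. ACAT1 had 2144 there, against group means here of 2165 in shCHROME and 2235 in EV. ACOT2 had 1962 there, against 1935 in shCHROME and 1909 in EV. Which libraries or scaling gave the authors' values is not stated, so the calls are not set side by side on equal terms. Of the 14 members called here, 12 were called there with the same sign. ACSL3 had an adjusted p of 0.0659 and BDH1 of 0.0503 in the authors' deposited table.

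**Figure D5:**
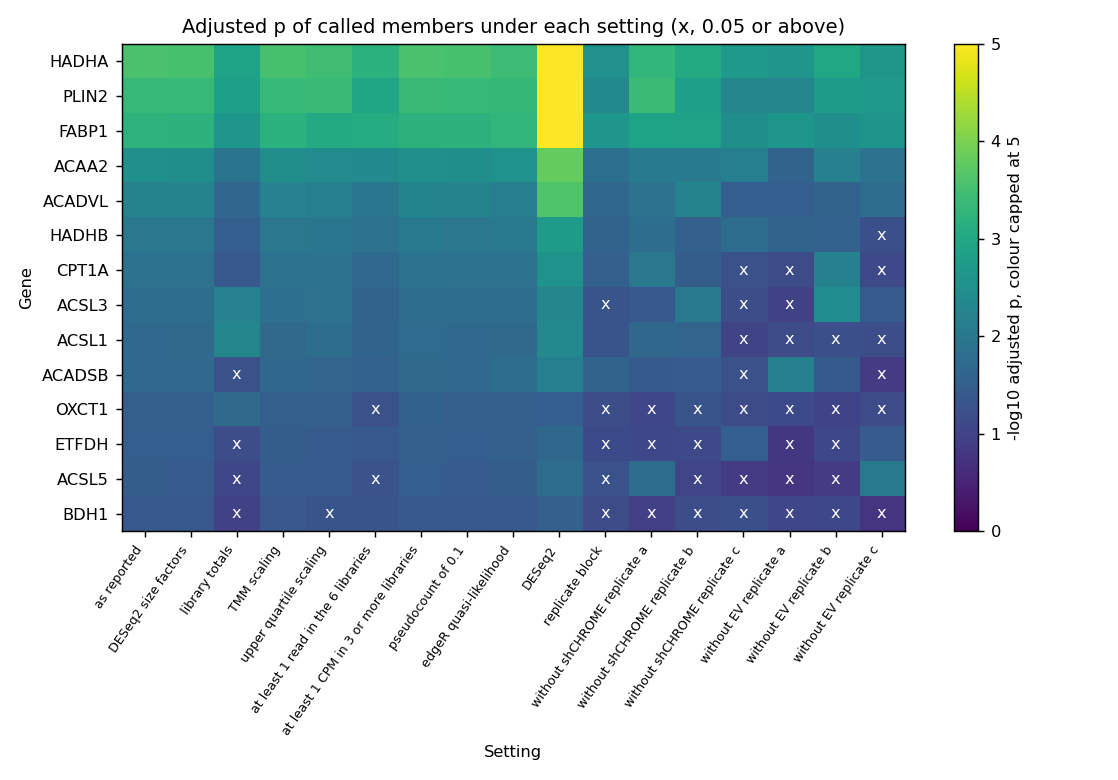
Rows are the 14 called members and columns the reported setting and the 16 alternatives. Colour gives -log10 of the adjusted p, and a cross marks 0.05 or above. HADHA, PLIN2, FABP1, ACAA2 and ACADVL have no cross, and the crosses of BDH1 and OXCT1 fill the 6 columns that leave out a library.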

How the data were processed

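Per the submitters' processing notes, the tools used on the 6 HepG2 libraries were STAR 2.5 and featureCounts 1.5.2, then DESeq2, listed as 3.4, with genome build hg19. The annotation and the strand setting are not given in the sources used here. Whether reads over overlapping genes were shared, dropped or given to 1 of them is therefore not known. The authors deposited a never-negative signal per gene and library (a normalized count), and beside it their own log2 fold change and p-values. After 1288 repeated rows of 24656 were dropped, 23368 genes remained. In each library the deposited values step by a fixed amount worth 1 read. Dividing by it gave whole reads (tolerance 0.01) for 100% of genes. No pair of replicates was close enough to be a repeated library (chi-square per degree of freedom of 5.69 to 17.0).

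The main test was limma-trend (limma 3.58.1) of log2(value + 1), with no term but the group, on genes kept by filterByExpr of edgeR 4.0.16. Fold changes are on that scale, which understates changes of low genes. Count tests on the recovered reads called 1015 genes lower and 538 higher (edgeR quasi-likelihood) or 1060 lower and 577 higher (DESeq2 1.42.0), against 1003 and 532 with limma. In simulated counts for the 14598 genes of shCHROME against EV, 50 genes were changed at each of 1.2-, 1.3-, 1.5- and 2-fold. There limma recovered 20% of the genes changed by 1.2-fold and 74% of those changed by 1.5-fold, with 2 false calls among 114. The data had 1535 calls, so the p needed for a call differed. These percentages therefore do not give the recovery in the data. Each alternative changed 1 choice, which was the scaling, the filter, the pseudocount (0.1), the test, a replicate block or a library left out.

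The members and gene lists were chosen with earlier results of these data known. Named genes were all members and, of the other lists, each called gene and PPARA, PPARGC1A and SLC25A20; some genes of the ketone list are not reported here. Genes named outside this rule, after their values were seen, were SLC16A7, FGF21, the hepatocyte markers not called and the markers with no read. Per-library values were given for members called or with a log2 fold change of at least 0.3 in size, and for a few others chosen after their values were seen (CRAT, ACADM, ETFA, ETFB and some genes outside the members). Exon lengths and untranslated regions came from GENCODE release 29 (GRCh38) by gene identifier or symbol.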

Additional observations from a re-analysis of the deposited data

How the results depend on the processing

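HADHA, PLIN2, FABP1, ACAA2 and ACADVL kept their direction and call in all 16 alternatives, and no called member changed sign. Against 11 members lower and 3 higher, library totals gave 7 lower and 3 higher, and a replicate block 8 lower and 1 higher. Leaving out a library gave 7 to 9 lower and 0 to 2 higher, with 0 higher (limma) without shCHROME replicate c or EV replicate a; 7 were lower without shCHROME replicate c, EV replicate a or EV replicate c, and 1 was higher without EV replicate b or c. Over all genes, against 1003 lower and 532 higher (65.3% lower), library totals gave 702 lower and 936 higher (42.9% lower, with the median of all genes moved to 0.06), the replicate block 764 and 349, and leaving out a library 600 to 1056 and 245 to 540. Deviations of same-lettered libraries correlated at -0.047 for a, -0.0915 for b and 0.0444 for c, so the letters were not taken as pairs. The block ended the calls of ACSL3 (adjusted p = 0.0514), ACSL5 (0.0554), ETFDH (0.0740), BDH1 (0.0691) and OXCT1 (0.0616), and outside the members of ALB (0.0572), SLC27A2 (0.0553), AUH (0.0869), PLIN3 (0.0523), CIDEC (0.0502) and FH (0.0814).

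Some genes with no call changed sign. All but ACAD11 had a value near 0. ACAD11, at 0.25 with all libraries, changed sign in 1 alternative, without EV replicate a. With library totals the log2 fold change was 0.042 for CPT2, 0.027 for ACADS, 0.047 for ACAD9, 0.024 for DECR1 and 0.0028 for ACAT1, and with upper quartile scaling it was 0.0038 for ACAD9. Leaving out 1 library gave -0.13 to 0.094 for CPT2, -0.095 to 0.057 for ACADS, -0.096 to 0.055 for ACAD9, -0.052 to 0.42 for ACAD11 and -0.070 to 0.023 for DECR1. The 4 ratios kept their sign without any 1 library, at -0.144 to -0.0823 for HADHA to HADHB, 0.145 to 0.305 for ETFA to ETFB, -0.378 to -0.0806 for CPT1A to CPT2 (-0.23 with all libraries, exact two-sided permutation p = 0.3, 0.3 adjusted over the 4) and -0.529 to -0.465 for ACAT1 to OXCT1. The cause of these shifts was not tested. Depth limits ACADL, PDK4 and CPT1C: without the expression filter PDK4 was at -0.57 on the log2 scale (95% interval -1.46 to 0.33) and CPT1C -0.31 (-1.36 to 0.73).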

Other observations

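FGF21, a hormone that liver releases in fasting and under stress and that PPARA is known to induce, was below the expression filter. It was singled out after its values were seen. It had 20.5, 8.27 and 13.8 normalized counts in shCHROME, against 6.69, 0.914 and 2.99 in EV, from 43 and 10 reads. The groups did not overlap, and without the filter its log2 fold change was 1.89 ± 0.51 (SE, limma adjusted p = 0.0333). ANGPTL4, also a known PPARA target, was lower in the same libraries. PPARA activity was not measured, and its part in either change was not tested.

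Markers of other cell types were examined beside the members, where 6.87% of all genes tested were called lower and 3.64% higher. Of 6 cholangiocyte markers, 4 were tested and 2 rose, KRT19 1.55-fold and SPP1 1.40-fold, with a summed level of 584 to 685 CPM in shCHROME and 457 to 522 CPM in EV. Virus had been packaged in HEK293T cells, a line of embryonic kidney. Of 14 embryonic kidney markers, 6 were tested, 1 fell (CDH2, 1.17-fold) and NEFL and NEFM had no read, with a summed level of 118 to 120 CPM in shCHROME and 121 to 131 CPM in EV. Of 9 stellate cell or fibroblast markers, 2 were tested and 1 fell (PDGFRB, 1.98-fold), DCN had no read, and the sum was 46.0 to 55.8 CPM in shCHROME and 49.2 to 55.6 CPM in EV. Of 7 blood markers, 4 were tested and 1 rose (LYZ, 1.22-fold), and CD3E and HBB had no read. The sum was 184 to 227 CPM in shCHROME and 160 to 163 CPM in EV. Most of it was LYZ (means of 5887 normalized counts in shCHROME and 4779 in EV). Of 5 endothelial markers, 3 were tested and limma, edgeR and DESeq2 called 0 (1 lower at an unadjusted p under 0.05 in limma), TEK had no read, and the sum was 29.3 to 32.5 CPM in shCHROME and 32.4 to 34 CPM in EV. Their part in the results was not tested. The call of CDH2 did not hold without shCHROME replicate c (adjusted p = 0.0655) or EV replicate a (0.0864) or c (0.0559), and that of LYZ without shCHROME replicate a (0.0583) or c (0.0604) or EV replicate c (0.0533).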
